A study of Homo sapiens with 19 samples.

Results

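The comparison set HepG2 cells carrying an siRNA against MCRS1 and exposed to EPZ-6438 beside cells with the same siRNA exposed to DMSO. Its members were chosen by the treatment and siRNA in the sample labels and by the names of the table's columns, and they are 5 of the 19 mRNA-seq libraries of the series, 2 with EPZ-6438 and 3 with DMSO. HepG2 is a human hepatoblastoma line with many features of hepatocytes, and EPZ-6438 (tazemetostat) is an inhibitor of the histone methyltransferase EZH2. In both arms the agent was given from 3 days before transfection, at 1 µM for EPZ-6438, cells received 50 nM of 1 siRNA against MCRS1 (siMCRS1), and RNA was taken 72 h after transfection. DMSO siMCRS1 libraries therefore differed from EPZ-6438 siMCRS1 libraries in the drug alone, as far as the labels say. The same table held 5 libraries of the same line with a control siRNA named NTG, 2 with DMSO and 3 with EPZ-6438, on the same schedule. Each knockdown rests on 1 siRNA, and nothing in the labels says whether libraries of a group came from separate cultures, so every p-value below measures the spread between these libraries, which may be technical.

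EZH2 is the catalytic subunit of Polycomb repressive complex 2 (PRC2), which places methyl groups on lysine 27 of histone H3 (H3K27me3), a mark of silenced genes that PRC1 can recognise. The mark is lost gradually as chromatin is copied when EZH2 is inhibited, and genes under it can become expressed where activators are present. MCRS1 is a subunit of the INO80 chromatin remodeling complex and of the NSL histone acetyltransferase complex, so the comparison asks what EZH2 inhibition does to expression in cells that already have little MCRS1.

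The deposited values were normalized counts, in which the count of a gene is scaled by a single factor for each library. Whole numbers could be recovered from them and are called reads below, although they may be rounded estimates. The EPZ-6438 siMCRS1 libraries held 43324984 and 46879786 reads and the DMSO siMCRS1 libraries 26038505 to 36478361 (median 34469027), so the drug-treated libraries were the deeper ones. A count of 3 reads corresponded to 2.40 and 2.66 normalized counts in the first group and to 3.30 to 4.30 in the second, which covers counting error only. Replicates correlated at r = 0.984 to 0.988 across genes in the siMCRS1 groups and none was a copy of another. Hepatocyte genes were abundant in every library, with 198200 to 280470 normalized counts of ALB (albumin) in the siMCRS1 libraries. KDR (endothelial) and CFTR (biliary) were at 0 there, and TEK (endothelial) and CD3E (T cell) at or below 1.78. Other listed markers were detected in those libraries. Among endothelial genes PECAM1 had 138 to 228 normalized counts and CDH5 15.1 to 60.8, the highest in EPZ-6438 library A. Among leukocyte genes CD14 had 18.9 to 28.4 and PTPRC 11.5 to 23.4. Summed over the fixed markers, endothelial genes had 176 to 248 normalized counts with DMSO and no more than 214 with EPZ-6438, and fibroblast genes 563 to 908 and 842 to 890. Leukocyte and biliary sums were carried by LYZ and by KRT19 and SOX9, which HepG2 cells expressed in all groups.

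MCRS1 itself had 140, 83.7 and 119 normalized counts in the DMSO siMCRS1 libraries and 126 and 90.5 in the EPZ-6438 siMCRS1 libraries, against 1201 to 1577 in the NTG libraries. The knockdown left 7.99% of the NTG level in DMSO and 7.93% in EPZ-6438, so both arms had the same depletion to within the spread of the libraries. EZH2 had 1848, 1536 and 1737 normalized counts with DMSO and 1711 and 1545 with EPZ-6438, and these ranges overlapped. The target of the drug was thus measured at like transcript levels in both arms, and enzyme activity and H3K27me3 were not measured here.

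EPZ-6438 changed few genes beyond the spread of the libraries in siMCRS1 cells, and nearly all of them rose. Genes were tested where their average over all 10 libraries of the table was 10 normalized counts or more, and of 14312 such genes 13 (0.0908%) passed a Benjamini-Hochberg adjusted p under 0.05 in limma, 12 higher (0.0838%) and 1 lower (0.00699%). The 12 were GJA1, HPGD, HABP2, PAPSS2, PLA2G2A, SERPINB2, XIRP2, SCNN1A, VNN1, BEX1, OSR1 and CYB5A, and the gene that fell was MT2A. The spread of each gene was estimated over all 10 libraries, those with NTG included. With the siMCRS1 libraries fitted alone 3 genes passed, and 2 of the 13 were among them, GJA1 and PLA2G2A. Fold changes below are on the scale of log2(normalized count + 1), each with its standard error (SE), and understate the change of low genes. The median over all tested genes was -0.02. Without adjustment 771 genes were higher (5.39%) and 534 lower (3.73%) at p under 0.05. On the reads, edgeR called 18 genes (0.126%), 17 higher and 1 lower, and DESeq2 called 150 (1.05%), 120 higher and 30 lower, and both included all 13. In bulk RNA, more cells expressing a gene and more RNA of it per cell cannot be told apart.

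**Figure D1:**
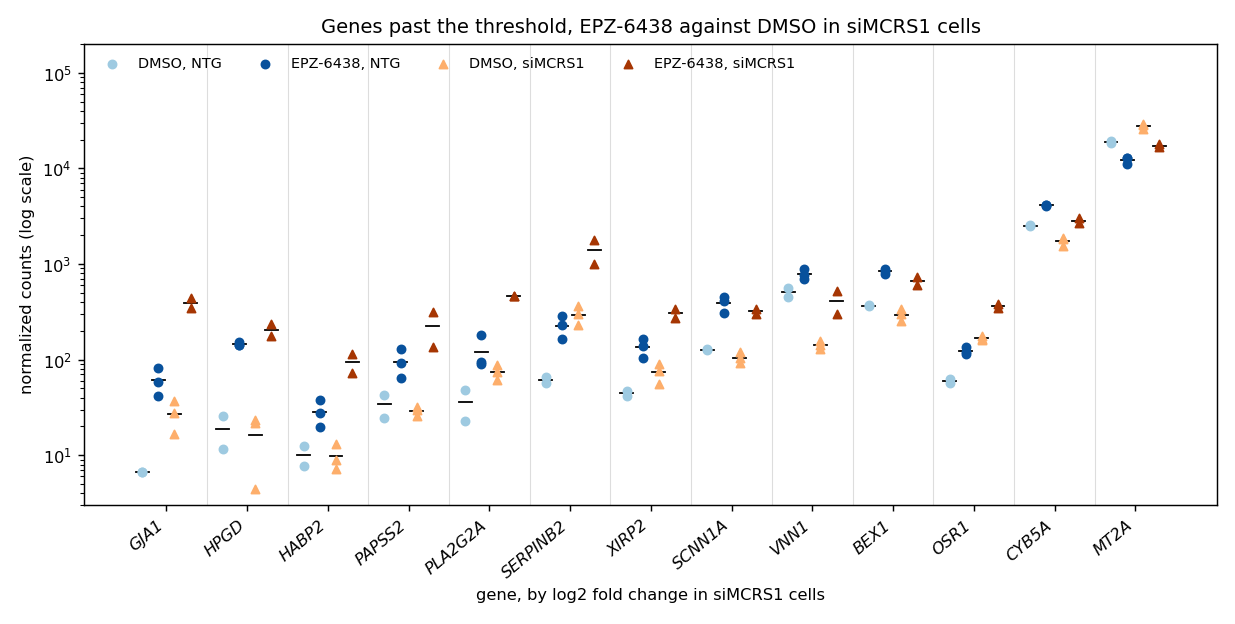
Normalized counts on a log axis for the 13 genes past the threshold, with 1 point per library, circles for NTG and triangles for siMCRS1 cells, pale for DMSO and dark for EPZ-6438, and a black bar at each group mean. In siMCRS1 cells both EPZ-6438 points lie above all 3 DMSO points for the first 12 genes and below them for MT2A.

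Sequence before an annotated start of 4 of the 13 genes is shown because their windows differ widely in base composition, and CG dinucleotides are what PRC2-regulated promoters are known to be rich in. RefSeq windows of 250 bases before an annotated start (GRCh38.p14, 1 start per gene) were found for 9 of the 13 genes (69.2%), which is too few to describe the 13 as a set, so that check is void. The start used for HPGD and for PLA2G2A lies inside the span of the gene, so their windows are upstream of that start and not of the whole gene. OSR1, PAPSS2, SCNN1A and VNN1 had none. CG dinucleotides are in capitals in the first 3 sequences, written on the strand of the gene.
GJA1: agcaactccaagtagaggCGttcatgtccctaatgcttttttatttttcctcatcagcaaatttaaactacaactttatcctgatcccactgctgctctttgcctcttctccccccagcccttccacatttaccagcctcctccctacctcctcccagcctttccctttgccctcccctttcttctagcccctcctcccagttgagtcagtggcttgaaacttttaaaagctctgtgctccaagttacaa
PLA2G2A: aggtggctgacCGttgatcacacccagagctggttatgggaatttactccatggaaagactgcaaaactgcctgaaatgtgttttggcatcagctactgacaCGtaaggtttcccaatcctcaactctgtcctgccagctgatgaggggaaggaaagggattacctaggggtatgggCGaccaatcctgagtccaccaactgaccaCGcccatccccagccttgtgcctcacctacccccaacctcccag
HPGD: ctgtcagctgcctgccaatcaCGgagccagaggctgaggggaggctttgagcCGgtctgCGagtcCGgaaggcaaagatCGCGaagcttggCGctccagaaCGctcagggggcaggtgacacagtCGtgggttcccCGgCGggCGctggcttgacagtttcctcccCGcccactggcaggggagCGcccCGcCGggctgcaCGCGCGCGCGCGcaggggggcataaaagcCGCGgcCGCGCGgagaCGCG
The window of GJA1 (chr6:121435396-121435645, plus strand) held 1 CG and that of PLA2G2A (chr1:19979660-19979909, minus strand) 4, against 29 in that of HPGD (chr4:174522489-174522738, minus strand). Over 35116 RefSeq windows of the same length the median was 11, 14.7% held as few as GJA1, 34.3% as few as PLA2G2A and 87.6% as few as HPGD. The remaining counts were 0 for SERPINB2, 1 for XIRP2, 7 for HABP2, 19 for BEX1, 26 for CYB5A and 32 for MT2A, so genes of CG-poor and CG-rich windows were both among those called.
The window of MT2A (chr16:56608334-56608583, plus strand) follows with metal response element cores in capitals, searched as TGCACNC and TGCGCNC on both strands, overlaps merged.
MT2A: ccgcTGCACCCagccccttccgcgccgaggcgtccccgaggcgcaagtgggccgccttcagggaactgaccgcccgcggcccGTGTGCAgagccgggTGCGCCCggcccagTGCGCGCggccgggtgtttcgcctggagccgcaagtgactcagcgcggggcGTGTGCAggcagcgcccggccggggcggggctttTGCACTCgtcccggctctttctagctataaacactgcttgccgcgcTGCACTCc
It held 7 cores, and 0.0313% of the windows held as many, while 24.8% held at least 1. A match describes letters in this window and does not show binding.

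GJA1 encodes connexin 43, a subunit of the channels that join cells at gap junctions (chr6:121435646-121449727). It had 16.7, 27.5 and 37.2 normalized counts in the 3 DMSO libraries and 442 and 348 in the EPZ-6438 libraries. The lowest drug-treated library was far above the highest DMSO library, with means of 395 ± 66.8 (SD, n = 2) and 27.2 ± 10.3 (SD, n = 3), a ratio of 14.6. The log2 fold change was 3.87 (SE 0.36, limma adjusted p = 0.00652), and GJA1 had the lowest adjusted p of the 13. Of 24 listed connexin and pannexin genes, 9 were tested and GJA1 alone passed. GJB1, the main connexin of hepatocytes, had 967, 596 and 438 normalized counts with DMSO and 1166 and 653 with EPZ-6438, which overlapped, and GJB2 had 18.9, 52.9 and 41.5 against 14.4 and 24.9.

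SCNN1A, the alpha subunit of the epithelial sodium channel (chr12:6346847-6377359), had 91.3, 119 and 105 normalized counts with DMSO and 340 and 301 with EPZ-6438. The EPZ-6438 libraries lay close together and well above the DMSO libraries, at 3.05 times their mean. Its log2 fold change was 1.61 (SE 0.19, adjusted p = 0.0288).

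HPGD is the dehydrogenase that inactivates prostaglandins (chr4:174490175-174522893), and had 4.45, 23.1 and 21.5 normalized counts with DMSO and 176 and 234 with EPZ-6438. The lowest DMSO value was close to the floor of 3 reads and widened that group, and the means of 16.4 ± 10.3 and 205 ± 41.2 gave a log2 fold change of 3.83 (SE 0.57, adjusted p = 0.0411). Without that library, DMSO library 1, the log2 fold change was 3.13. PLA2G2A, a secreted phospholipase A2 that releases fatty acids from phospholipids (chr1:19975431-19980434), had 61.2, 87.0 and 74.5 normalized counts with DMSO and 458 and 465 with EPZ-6438. Its EPZ-6438 libraries nearly coincided, and it rose 6.22-fold on the means, with a log2 fold change of 2.63 (SE 0.35, adjusted p = 0.0298).

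SERPINB2 (plasminogen activator inhibitor 2, chr18:63887705-63903888) had 361, 228 and 298 normalized counts with DMSO and 1794 and 989 with EPZ-6438. The EPZ-6438 libraries stood apart from each other as well as from DMSO, and the log2 fold change was 2.19 (SE 0.29, adjusted p = 0.0298). HABP2, a hyaluronan-binding serine protease made by the liver (chr10:113550831-113589602), had 8.90, 13.2 and 7.16 normalized counts with DMSO and 115 and 71.9 with EPZ-6438. HABP2 went from a level near the filter on low genes to 9.58 times that level, with a log2 fold change of 3.14 (SE 0.41, adjusted p = 0.0298). Its mean was under the 50 normalized counts set for named genes, and it was named after its values were seen.

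PAPSS2, which makes the sulfate donor of sulfation reactions (chr10:87659878-87747705), had 32.3, 29.7 and 25.8 normalized counts with DMSO and 316 and 137 with EPZ-6438. The DMSO libraries lay close together, the EPZ-6438 libraries differed by more than the whole DMSO range, and the log2 fold change was 2.79 (SE 0.40, adjusted p = 0.0411), or 2.19 without library A and 3.39 without library B. VNN1, a pantetheinase that forms cysteamine (chr6:132680849-132714055), had 129, 143 and 156 normalized counts with DMSO and 518 and 304 with EPZ-6438. Both lay above DMSO with library A the higher, as for PAPSS2, at a log2 fold change of 1.47 (SE 0.22, adjusted p = 0.0411). CYB5A, the membrane cytochrome b5 that donates electrons to desaturases and P450 enzymes (chr18:74250846-74291963), had 1824, 1855 and 1547 normalized counts with DMSO and 3022 and 2680.5 with EPZ-6438. This was the most abundant of the genes that rose, and its change was the smallest, 0.71 (SE 0.10, adjusted p = 0.0411) or 1.64-fold on the means.

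XIRP2, an actin-binding protein of striated muscle (chr2:166888480-167259753), had 55.6, 90.3 and 75.9 normalized counts with DMSO and 342 and 272 with EPZ-6438, a log2 fold change of 2.05 (SE 0.26, adjusted p = 0.0288). BEX1, a small protein named for its expression in brain (chrX:103062651-103064171), had 298, 336 and 255 normalized counts with DMSO and 735 and 596 with EPZ-6438. OSR1, a zinc finger transcription factor of early kidney and mesoderm development (chr2:19344874-19358623), had 177, 162 and 165 normalized counts with DMSO and 346 and 384 with EPZ-6438. The groups of all 3 genes were separated by more than the range within either, and BEX1 and OSR1 rose by 1.17 (SE 0.15, adjusted p = 0.0288) and 1.12 (SE 0.16, adjusted p = 0.0411) on the log2 scale. OSR1 was the only DNA-binding transcription factor among the 13.

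MT2A, a metallothionein that binds zinc and copper (chr16:56608584-56609497), had 29445, 25819 and 28730 normalized counts with DMSO and 16554 and 17782 with EPZ-6438. It was by far the most abundant of the 13, above 98.9% of tested genes in DMSO siMCRS1 cells, and its mean with EPZ-6438 was 0.613 of that with DMSO. The log2 fold change was -0.70 (SE 0.11, adjusted p = 0.0474), the adjusted p nearest to the threshold. Of 11 listed metallothionein genes 7 were tested, and the other tested members overlapped between the groups. MT1E had 10124, 8195 and 9381 normalized counts with DMSO and 9180 and 8026 with EPZ-6438, and MT1X had 2856, 1783 and 1823 against 2630 and 1961. Metallothionein transcripts are near-identical in sequence, and how reads were divided among them could not be checked, so the value of MT2A alone is uncertain.

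Most of the genes that rose started low. In DMSO siMCRS1 cells 11 of the 12 were below the median level of the tested genes, on the scale of normalized counts, which is not corrected for length. The same libraries entered the calls, so this level is a description alone. EPZ-6438 library A was higher than library B for 9 of the 12, including PAPSS2, VNN1 and SERPINB2. All 13 genes kept their sign under the 22 alternative settings (21 for HABP2, which 1 filter removed), and which of them passed depended on single libraries. Without EPZ-6438 library A none of the 13 passed (0 genes in all), and without library B 4 of them did, in both cases with 1 EPZ-6438 library that was assumed to vary like the other groups. Without DMSO library 3 only GJA1 passed, and without DMSO library 1 and DMSO library 2 there were 6 and 10. GJA1 passed under 21 of the 22, SCNN1A under 15, and BEX1 and SERPINB2 under 14 each, whereas MT2A passed under 6. Thinning all libraries to 26038505 reads left 7 of the 13.

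**Figure D2:**
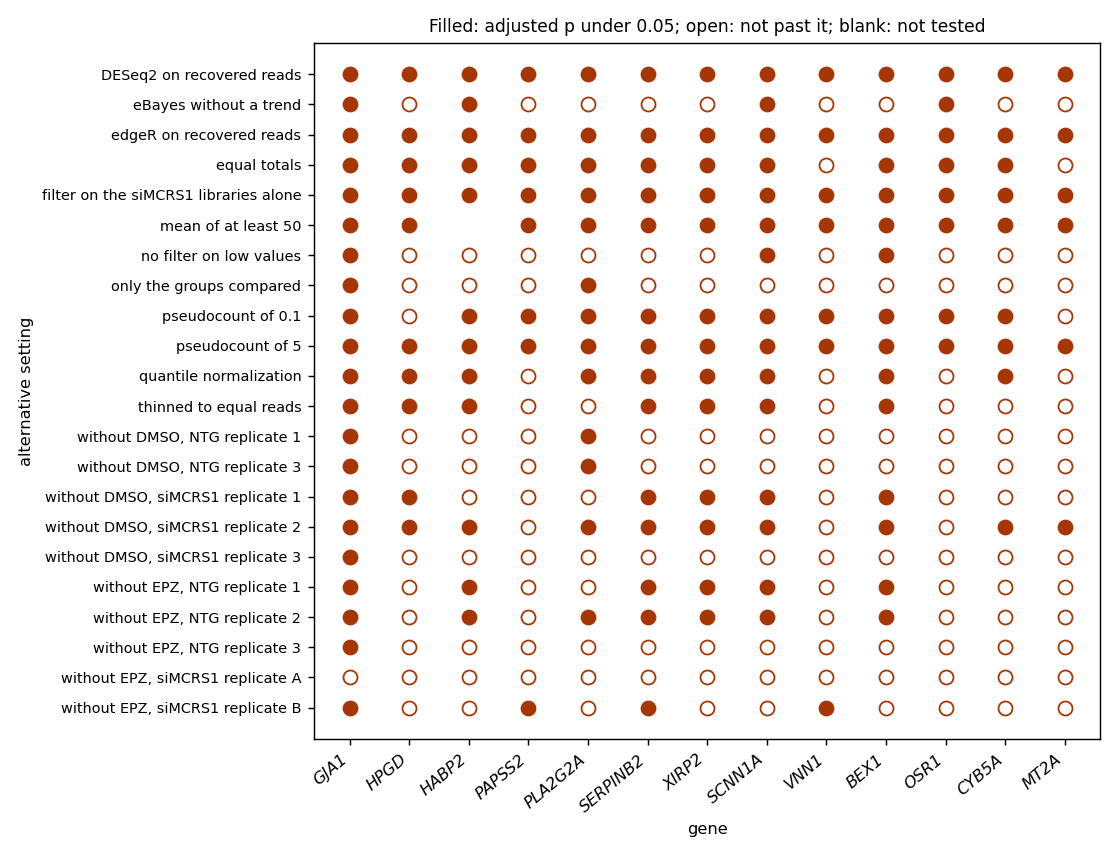
Each row is 1 alternative setting and each column 1 of the 13 genes, with a filled point where the adjusted p stayed under 0.05, an open point where it did not, and no point where the gene was not tested. The column of GJA1 is filled but for 1 row, and the row without EPZ-6438 library A is open throughout.

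The NTG libraries share none with the comparison and allow the response in siMCRS1 cells to be set beside that in control cells. In NTG cells 55 genes (0.384%) passed, and 8 of the 13 were among them with the same sign (61.5% of the 13 and 14.5% of the 55). Those 8 were GJA1, SERPINB2, XIRP2, SCNN1A, BEX1, OSR1, CYB5A and MT2A. Both contrasts took the spread of each gene from the same fit, with equal SE. The calls in NTG cells were therefore not independent of those in siMCRS1 cells. For all 13 every EPZ-6438 NTG library lay on the same side of both DMSO NTG libraries as in siMCRS1 cells. GJA1 had 6.70 and 6.68 normalized counts in DMSO NTG and 80.8, 59.0 and 42.1 in EPZ-6438 NTG libraries, a log2 fold change of 2.95 (SE 0.36, adjusted p = 0.0189). It thus rose in both backgrounds, from a level that was higher in siMCRS1 cells. SCNN1A, BEX1 and CYB5A had nearly equal effects, at 1.59, 1.19 and 0.71 in NTG cells.

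The 5 genes that passed in siMCRS1 cells alone were HPGD, HABP2, PAPSS2, PLA2G2A and VNN1. HABP2 had 12.4 and 7.63 normalized counts in DMSO NTG and 37.7, 19.9 and 27.3 in EPZ-6438 NTG libraries, a log2 fold change of 1.40 (adjusted p = 0.131). PAPSS2 had 43.1 and 24.8 against 130.4, 63.9 and 91.5, a log2 fold change of 1.45 (adjusted p = 0.118), and VNN1 452 and 565 against 891, 695 and 760, a log2 fold change of 0.62 (adjusted p = 0.191). The effects of these 3 genes were smaller in NTG cells, but a difference between backgrounds needs its own test. For HPGD and PLA2G2A, too, every EPZ-6438 NTG library lay above both DMSO NTG libraries. Their NTG values are not given here, so the 3 genes shown do not stand for the 5. The interaction, which is the EPZ-6438 effect in siMCRS1 cells minus that in NTG cells, was 1.74 (SE 0.58) for HABP2, 1.34 (SE 0.56) for PAPSS2 and 0.85 (SE 0.31) for VNN1. Across all 14312 genes limma called 0 interactions (lowest adjusted p = 0.353, 336 genes at an unadjusted p under 0.05), edgeR 0 and DESeq2 5. None of the 13 can therefore be called specific to siMCRS1 cells. Because these genes were chosen on the siMCRS1 contrast, that 10 of the 12 that rose had the larger effect there is a description and nothing more.

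**Figure D3:**
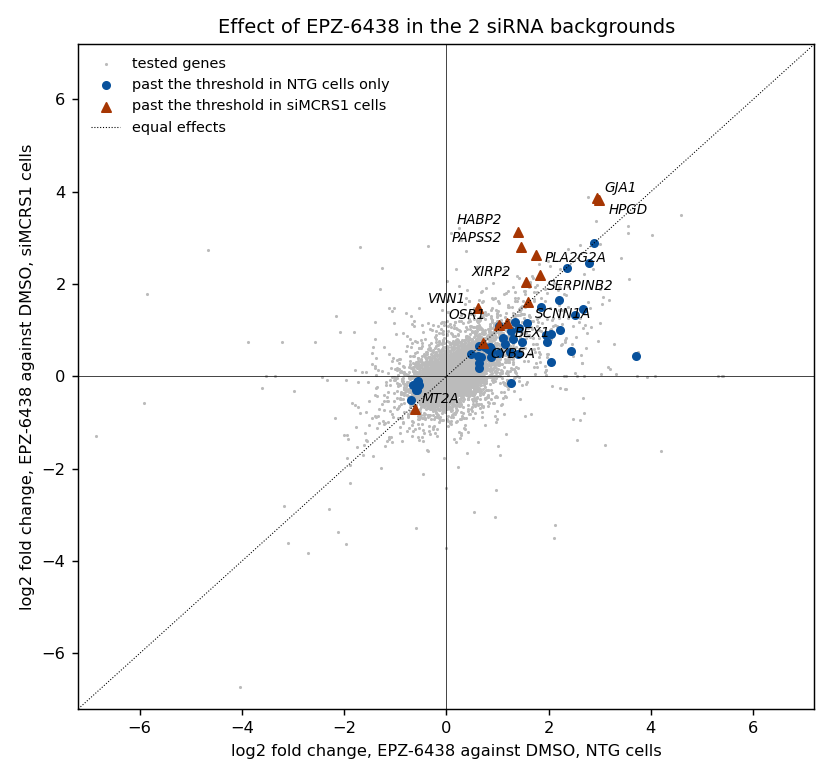
Log2 fold change of EPZ-6438 against DMSO in NTG cells (x axis) and siMCRS1 cells (y axis), with 1 grey point per tested gene, blue circles for genes past the threshold in NTG cells alone, brown triangles for the 13 genes past it in siMCRS1 cells and a dotted line of equal effects. All 13 triangles have the same sign on both axes, and 10 of the 12 genes that rose lie above the dotted line, HABP2, PAPSS2 and VNN1 among them.

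Separation without a test was also counted over all genes. In siMCRS1 cells both EPZ-6438 libraries were above all DMSO libraries for 1704 genes (11.9%) and below them for 1901 (13.3%). Of the 1704, 795 (46.7%) were also separated upward in NTG cells and 49 (2.88%) downward, where 16.4% and 17.1% of all tested genes were. Of the 1901, 717 (37.7%) were separated downward in NTG cells and 59 (3.10%) upward. The direction of the drug effect thus recurred in libraries that were not used to choose these genes. All EPZ-6438 libraries were set against all DMSO libraries in both backgrounds, so a difference in handling between the drug and DMSO libraries cannot be told apart from the drug.

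Knockdown of MCRS1 moved several of the same genes, in a comparison that shares the DMSO siMCRS1 libraries and is given only side by side. With siMCRS1 against NTG in DMSO 6830 genes (47.7%) passed, so a call there was common. SERPINB2 was higher by 2.22, GJA1 by 1.80, OSR1 by 1.48, PLA2G2A by 1.11, XIRP2 by 0.70 and MT2A by 0.56, and the EPZ-6438 effects in siMCRS1 cells were 2.19, 3.87, 1.12, 2.63, 2.05 and -0.70 in the same order. VNN1 and CYB5A fell with siMCRS1 in DMSO, at -1.82 and -0.53, and had EPZ-6438 effects of 1.47 and 0.71. VNN1 thus had 452 and 565 normalized counts in DMSO NTG, 129 to 156 in DMSO siMCRS1 and 304 and 518 in EPZ-6438 siMCRS1 libraries.

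Subunits of the complexes involved did not pass the threshold. Over all tested genes 11.9% had both EPZ-6438 libraries above all DMSO libraries and 13.3% had both below. At an unadjusted p under 0.05 in limma 771 genes (5.39%) were higher and 534 (3.73%) lower, and DESeq2 called 150 (1.05%). Of 12 tested PRC2 genes 0 passed in limma, edgeR, DESeq2 or at an unadjusted p under 0.05, with log2 fold changes of -0.23 (EZH1) to 0.09 (AEBP2) and a median of -0.06. None had both EPZ-6438 libraries above DMSO and 2 had both below, PHF19 and RBBP4. The 16 INO80 subunits (median -0.08) and the 9 NSL subunits (median -0.07) likewise had 0 calls by any of the 3 tools and 0 at an unadjusted p under 0.05, and 2 and 1 of them were separated downward. The 4 tested H3K27 demethylases and acetyltransferases had a median of -0.16 with 0 calls of any kind, and all 4 overlapped. Of 24 PRC1 subunits 6 were separated upward and 4 downward, and 0 passed the threshold in limma or edgeR. BMI1, a RING finger partner of PRC1, had 3952, 4126 and 4382 normalized counts with DMSO and 6362 and 6260 with EPZ-6438, a log2 fold change of 0.60 (limma adjusted p = 0.116), and was the 1 PRC1 gene that DESeq2 called. RNF2, the ubiquitin ligase of PRC1, had 1570, 1692 and 1481 against 2061 and 1993 (0.36), and CBX2, which reads H3K27me3, had 543, 454 and 597 against 785 and 661 (0.45). These and BCORL1 were the 4 PRC1 genes with an unadjusted p under 0.05.

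The listed classical Polycomb targets did not pass the threshold in limma. OSR1, a developmental transcription factor that did pass, was not among the listed genes. Of all 14312 tested genes 1305 had an unadjusted p under 0.05 in limma and 6605 a log2 fold change above 0. DESeq2 called 150 (1.05%). Of 39 HOX genes 8 reached the level for testing and 0 passed in limma, edgeR or DESeq2 (1 at an unadjusted p under 0.05), with a median of 0.23 and a lowest value of 0.12. HOXC9 was the 1 HOX gene separated, at 10.0, 8.81 and 10.0 normalized counts with DMSO and 20.8 and 22.2 with EPZ-6438. Of 131 listed developmental transcription factors 54 were tested. Among them 9 were separated upward and 11 downward, where 11.9% and 13.3% of all tested genes were. Their median was 0.01, and 0 passed in limma or edgeR (11 unadjusted, 6 higher and 5 lower). DESeq2 called LHX1, a LIM homeobox factor, which had 25.6, 22.0 and 37.2 normalized counts with DMSO and 0 and 4.44 with EPZ-6438. GATA6, an endoderm factor, had 469, 577 and 491 against 682 and 918, so members lay on both sides. CDKN2A, a cell cycle inhibitor known as a Polycomb target, had 171, 545 and 192 normalized counts with DMSO and 742 and 463 with EPZ-6438, and the ranges overlapped. Of the 7 tested CDK inhibitors 0 passed in limma, edgeR or DESeq2 and 1, CDKN2A, had an unadjusted p under 0.05.

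Lists of liver genes had 0 calls in limma. For the counts that follow, 6605 of the 14312 tested genes had a log2 fold change above 0, 1305 an unadjusted p under 0.05, 11.9% were separated upward and 13.3% downward. DESeq2 called 150 of all tested genes (1.05%). Among 30 tested genes of secreted plasma proteins 8 were separated upward and 0 downward, and 27 had a log2 fold change above 0, with a median of 0.23. In limma and edgeR 0 of them passed, 6 had an unadjusted p under 0.05 and DESeq2 called 1. APOC3, an apolipoprotein, had 327, 370.1 and 150.4 normalized counts with DMSO and 623 and 479 with EPZ-6438, and FGB, the fibrinogen beta chain, had 14586, 16867 and 8018 against 27146 and 17087. DMSO library 3 was the lowest in both genes, and without it the median of the 30 was 0.10. Among 29 cytochrome P450 genes 6 were separated upward and 0 downward (median 0.23, 0 called by limma and edgeR, 5 unadjusted, 1 by DESeq2), among them CYP2U1, a fatty acid hydroxylase, at 95.7, 124 and 106 against 278 and 158. Of 23 hepatocyte transcription factors 6 were separated upward and 1 downward (median 0.20, 0 called by limma and edgeR, 4 unadjusted, 1 by DESeq2). NR5A2, a nuclear receptor of bile acid synthesis, had 62.3, 71.6 and 58.7 normalized counts with DMSO and 166 and 107 with EPZ-6438 (log2 fold change 1.04, adjusted p = 0.117), whereas FOXA1 had 3261, 2533 and 3021 against 2130 and 2326. Of 23 cholesterol synthesis genes 22 had a log2 fold change above 0 and 9 were separated upward (11.9% of all tested genes), at a median of 0.18, with 0 called by the 3 tools and 1 unadjusted, HMGCS1, the synthase before the statin target, at 13777, 13991 and 13613 against 17014 and 15956.

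Antigen presentation and signalling lists were of the same small size. Of 19 MHC class I genes 6 were separated upward and 0 downward (median 0.21), with 0 called by the 3 tools and 3 unadjusted. HLA-B had 171, 203 and 130 normalized counts with DMSO and 326 and 240 with EPZ-6438, and the peptidase gene ERAP2 had 778, 658 and 593 against 1067 and 823. The 5 tested MHC class II genes had a median of 0.10 and 0 calls of any kind. Of 26 interferon-stimulated and RNA sensor genes 7 were separated upward and 2 downward, with a median of 0.23 that fell to 0.03 without EPZ-6438 library A, and 0 called by limma and edgeR, 7 unadjusted and 1 by DESeq2. Wnt antagonists had 6 of 14 separated upward and 0 downward (median 0.28, 0 called by limma and edgeR, 4 unadjusted, 1 by DESeq2). SFRP4, a secreted Frizzled-related protein, had 37.8, 35.2 and 20.1 normalized counts with DMSO and 107 and 63.0 with EPZ-6438, and DKK1, a secreted LRP6 inhibitor, had 9327, 9194 and 7100.2 against 11717 and 9822. Of 19 immediate early genes 1 was separated upward and 4 downward, where 11.9% and 13.3% of all tested genes were, at a median of -0.13, with 0 called by the 3 tools and 4 unadjusted. EGR3 had 54.5, 108 and 74.5 normalized counts with DMSO and 17.6 and 43.5 with EPZ-6438, and FOSL1, an AP-1 subunit, had 2280, 2817 and 2207 against 1794 and 2055.

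Proliferation, stress and structural lists stayed near the median of all genes. Of 26 DNA replication genes 0 were separated upward and 4 downward (median -0.06), of 25 mitosis genes 4 upward and 0 downward (median 0.05), and both had 0 calls by the 3 tools, with 1 and 0 unadjusted. CDC6, a replication licensing factor, had 4026, 3743 and 3426 normalized counts with DMSO and 3143 and 3093 with EPZ-6438. The 25 p53 targets (median 0.03, 4 unadjusted), 18 integrated stress response genes (median -0.10, 1 unadjusted), 26 imprinted genes (median 0.04, 0 unadjusted), 14 epithelial genes (median 0.09, 3 unadjusted) and 14 mesenchymal genes (median -0.01, 3 unadjusted) had 0 calls by the 3 tools. Neuronal genes were separated downward in 4 of 14 and upward in 1 (median 0.02, 0 called by limma and edgeR, 5 unadjusted, 1 by DESeq2). VGF, a secreted neuropeptide precursor, had 710, 1063 and 1160 normalized counts with DMSO and 338 and 607 with EPZ-6438, while MAP2, a microtubule protein of dendrites, had 13.4, 26.4 and 32.9 against 56.8 and 124. Collagen, laminin and integrin genes had 6 of 40 separated upward and 3 downward (median -0.01, 0 called by limma and edgeR, 6 unadjusted), and DESeq2 called 3, all higher. COL3A1, a fibrillar collagen, had 1.11, 11 and 0 normalized counts with DMSO and 47.2 and 38.2 with EPZ-6438 (adjusted p = 0.134), and 2 of its 3 DMSO values were under the floor of 3 reads. It is also a marker of fibroblasts, of which COL1A1 had 750.1, 348 and 772 normalized counts with DMSO and 577 and 675 with EPZ-6438, and LUM at most 2.40 in these libraries.

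**Figure D4:**
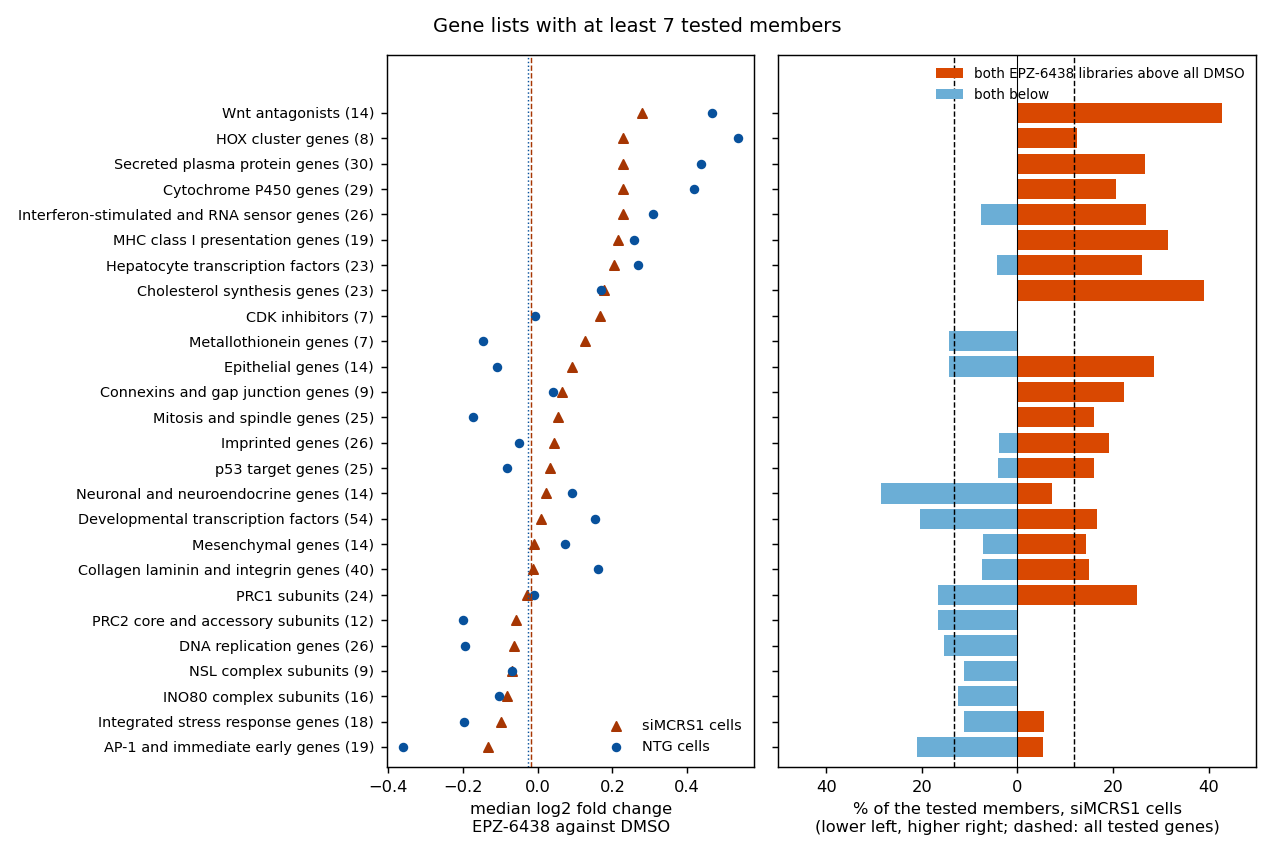
Gene lists with at least 7 tested members (number in brackets), with the median log2 fold change of EPZ-6438 against DMSO on the left (triangles siMCRS1 cells, circles NTG cells, vertical lines the medians of all tested genes) and, on the right, the percentage of members with both EPZ-6438 siMCRS1 libraries above (right) or below (left) all DMSO siMCRS1 libraries, with dashed lines at 11.9% and 13.3% for all tested genes. Wnt antagonists (6 of 14) and cholesterol synthesis genes (9 of 23) have the longest bars on the higher side.

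Just outside the threshold, in order of p and named after their values were seen, stood LEFTY1, EREG, RCN1, RAB27B, MECOM and IL17B. LEFTY1, an inhibitor of Nodal signalling, had 7.79, 17.6 and 5.73 normalized counts with DMSO and 94.4 and 59.5 with EPZ-6438, a log2 fold change of 2.88 (SE 0.45, adjusted p = 0.0563). EREG, the EGF receptor ligand epiregulin, had 150.2, 515 and 311 against 1842 and 2092, a log2 fold change of 2.76 (adjusted p = 0.0583). Both were thus of the size of the genes called. Relative to their level, their DMSO libraries differed more than those of the 13 except HPGD, whose DMSO libraries differed more still. MECOM, a zinc finger oncogene, had 285, 366 and 370 normalized counts with DMSO and 850 and 702 with EPZ-6438. RAB27B, a small GTPase of vesicle secretion, had a log2 fold change of 2.12, and edgeR called LEFTY1, EREG, RAB27B, MECOM and IL17B, the 5 genes it added to the 13. TMC6 was the next gene on the lower side, with 1455, 1323 and 1573 normalized counts with DMSO and 836 and 949 with EPZ-6438, at a log2 fold change of -0.70 (adjusted p = 0.0718).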

How the data were processed

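HepG2 cells were profiled by mRNA-seq, and the 10 libraries exposed to EPZ-6438 or DMSO stand in 1 deposited table of 34825 gene symbols. The authors deposited a never-negative signal, read counts per gene scaled by library, and their processing notes name kallisto, DESeq2 and GRCh38 without versions. Whether counting used the strand is not given in the sources used here, so overlapping genes are uncertain. Columns were assigned to groups by name, and 0 columns of the table were left without a group. Reads were recovered as whole numbers for 100% of values (tolerance 0.01). Because kallisto estimates counts, these whole numbers may be rounded estimates and not reads as observed. The table of INO80 siRNAs, scaled on its own, was not used.

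Values were taken as log2(value + 1) and tested by limma (version 3.58.1, R 4.3.3, linear model followed by trended eBayes), with the 4 groups in 1 fit and Benjamini-Hochberg adjustment over 14312 genes. Alternatives were pseudocounts of 0.1 and 5, other filters, equal totals, quantile normalization, no trend, only the groups compared, thinning to 26038505 reads, each library left out, and edgeR 4.0.16 and DESeq2 1.42.0 on the reads. Leaving out libraries of the groups not compared was added after the data were seen. Named genes were those past the threshold whose siMCRS1 libraries averaged 50 normalized counts or more and whose groups did not overlap, at most 15 in each direction, and members of the gene lists. The members and lists were chosen with earlier results of these data known. Coordinates and windows are from RefSeq (GRCh38.p14), and figures were drawn with matplotlib 3.10.9.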

Additional observations from a re-analysis of the deposited data

Results flagged for a closer look

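The genes searched were the 534 tested members of the gene lists, genes past the threshold and the genes ranked next. Some genes added by name, SYS1-DBNDD2 and THBS1 among them, were included. For 6 of these all EPZ-6438 libraries lay on one side of DMSO in siMCRS1 cells and on the opposite side in NTG cells. Of all 14312 tested genes 49 (higher in siMCRS1 cells) and 59 (lower) had that pattern, so the 6 are no result about the genes searched. The interaction in limma did not pass the threshold for any of the 6 (adjusted p of 0.353 to 1.00). The interaction was -5.60 on the log2 scale for SYS1-DBNDD2, a read-through transcript that shares sequence with its neighbours, which had 26.7, 9.91 and 28.6 normalized counts in DMSO siMCRS1 libraries, 2.40 and 0 in EPZ-6438 siMCRS1 libraries, 4.79 and 2.86 in DMSO NTG libraries and 15.1 to 27 in the 3 EPZ-6438 NTG libraries. For AC009133.22 it was -1.42, with 507, 426 and 434 normalized counts against 416 and 404 in siMCRS1 cells and 618 and 538 against 1222, 1618 and 1369 in NTG cells. It was -1.16 for SOX7, an endoderm and endothelial transcription factor, with 32.3, 29.7 and 40.1 against 21.6 and 20.4 in siMCRS1 cells. MSX1, a homeobox factor, had an interaction of -0.36, and KIF11, a mitotic kinesin, of 0.38. THBS1, the matrix protein thrombospondin 1, had an interaction of 1.06, with 29568, 35606 and 29902 against 36133 and 44355 in siMCRS1 cells and 7269 and 7589 against 3920.5, 5531 and 4279 in NTG cells.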

How the results depend on the processing

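The count of 13 genes for EPZ-6438 against DMSO in siMCRS1 cells was 150 with DESeq2, 7 without a trend in eBayes, 4 without a filter on low values, 3 with only the groups compared and 7 after thinning to equal reads, and stayed within 1.5 times under the other settings that used all libraries. Leaving out 1 library at a time gave 0 to 26 genes, with 0 without EPZ-6438 library A, 6 without library B, 11, 26 and 1 without DMSO library 1, 2 and 3, and 2 to 7 without a single NTG library, although none of these is in the contrast. The count of 55 in NTG cells was 721 with DESeq2, 19 without a trend, 20 without a filter, 128 with only the groups compared and 85 after quantile normalization, and 2 to 70 with 1 library left out. The interaction count of 0 was 5 with DESeq2 and 0 to 3 with 1 library left out. The cause was not tested. Of the 285 checks of the 13 genes by setting, 150 kept the sign and the threshold, 135 kept the sign alone and 0 reversed. The log2 fold change of MCRS1 with siMCRS1 ranged from -3.89 to -3.42. Fits that left a group with 1 library assumed that it varied like the others. No paired analysis was possible because the columns of the DMSO siMCRS1 libraries carry numbers where the labels carry letters. The DMSO NTG columns 1 and 3 stand beside labels A and C, but no source states that match and it was not assumed. Genes near 3 reads per library (2.40 to 4.30 normalized counts) were below what the depth could compare.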

Other observations

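Some genes of low level went from near absence with DMSO to detection with EPZ-6438, whose siMCRS1 libraries were the deeper ones. At or under 3 reads in every DMSO siMCRS1 library and at 10 or more normalized counts in both EPZ-6438 siMCRS1 libraries stood GPR37, HIST1H4K, PRSS35, SHOX2 and ZNF488, which were picked by that rule after the values were seen and carry no test. GPR37, an orphan receptor of nervous tissue, had 2.23, 0 and 0 normalized counts with DMSO and 27.2 and 13.3 with EPZ-6438, and 0.957 and 0 against 11.9, 17.1 and 11.6 in the NTG libraries. SHOX2, a homeobox factor of limb and sinus node, had 1.11, 3.30 and 4.30 against 10.4 and 10.7. Its NTG libraries overlapped, at 5.74 and 3.82 with DMSO and 9.70, 5.68 and 9.46 with EPZ-6438. PRSS35, a protease-like secreted protein, had 1.11, 3.30 and 1.43 against 27.2 and 15.1, and 0.957 and 1.91 against 7.54, 15.6 and 6.31 in the NTG libraries. HIST1H4K is 1 of several near-identical histone H4 genes, so its 0 in all DMSO libraries and 24.0 and 10.7 with EPZ-6438 are uncertain. The reverse held for RP11-490H24.5, with 15.6, 15.4 and 10.0 against 2.40 and 0, and for the read-through SPECC1L-ADORA2A, with 114, 198 and 50.1 against 0 and 0. The latter was at 0, 0 and 160 in the EPZ-6438 NTG libraries, so libraries of 1 group differed as much as the groups.

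Genes called in NTG cells alone show what the siMCRS1 contrast did not pass. CDH19, a cadherin of Schwann cell precursors, had 0.957 and 0.954 normalized counts in DMSO NTG and 32.3, 12.1 and 37.8 in EPZ-6438 NTG libraries, but stayed between 2.20 and 4.30 with DMSO and below 5 with EPZ-6438 in siMCRS1 cells. It reached the level for testing only through the EPZ-6438 NTG libraries, and its other values were near or under 3 reads. Its call and its interaction are therefore a description alone. LDLRAD1 had 31.6 and 49.6 against 149, 156 and 201 in NTG cells and 6.68, 5.51 and 7.16 against 9.60 and 7.10 in siMCRS1 cells. FSCN1, the actin-bundling protein fascin, had 2711 and 3330 against 7488, 8170 and 8220 in NTG cells and 4874, 6551 and 5115 against 7598 and 7749 in siMCRS1 cells, so both drug-treated siMCRS1 libraries were again the highest. The interaction of none of these 3 genes passed the threshold in limma (log2 values of -3.28, -1.73 and -0.91, adjusted p = 1.00 for each), and they were named after their values were seen.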
